A study of Mus musculus with 10 samples.

Results

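The 10 genes described here encode chromatin repressors of retrotransposons, and they were taken as a named set: Trim28, Setdb1, Mphosph8, Morc2a, Fam208a (also called Tasor), Pphln1, Atf7ip, Uhrf1, Dnmt1 and Hells. All 10 were found by symbol among the 55421 Ensembl genes of the count files, and all 10 passed the filter on low values. Testes at postnatal day 21 (P21) had been profiled in 3 groups. RNA-seq was made from 3 wild type and 3 Mov10-/- pairs of testes. RNA crosslinked to the MOV10 protein (CLIP-seq) was sequenced in 4 libraries from wild type testes. MOV10 is an RNA helicase that restrains LINE1 retrotransposons after transcription, and the Mov10-/- mice, on a mixed genetic background, had lost exons of its first helicase domain in every tissue through Actb-Cre. The paper's methods count pairs of testes and the labels name no animals, so p-values measure only the spread between these samples. The comparison of genotypes asks whether the genes that silence retrotransposons in chromatin were expressed at another level where this cytoplasmic restriction factor was missing.

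Retrotransposons are held silent in the nucleus by histone and by DNA methylation. KRAB zinc finger proteins recognise their sequences and recruit TRIM28, which in turn brings SETDB1 to methylate lysine 9 of histone H3. The HUSH complex, made of TASOR, MPP8 and periphilin, works with MORC2 and with SETDB1 at long transcribed elements such as LINE1. UHRF1 reads newly replicated DNA and recruits DNMT1, which copies methylation to the new strand, and HELLS opens nucleosomes for it. In the male germ line, new methylation is directed to young elements by the piRNA pathway before and around birth, and the maintenance enzymes copy it in the dividing germ cells that follow.

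The promoters of Uhrf1, Dnmt1 and Hells held the letters of an E2F site, the element through which genes of DNA replication are switched on before S phase, and they are shown because these 3 genes act on replicating DNA. The letters TTTCCCGC, TTTCGCGC, TTTGCCGC and TTTGGCGC were searched on both strands in RefSeq promoters of GRCm38.p6, each running from 250 bases before to 50 bases after a start site. Of the 15 promoters listed for the 10 genes, 3 held them, belonging to these 3 genes, against 2.26% of the 32851 promoters in the table and 4.29% of the 9690 with a GC content of at least 60%. The 3 windows of 30 bases, 5′ to 3′ on the strand of the gene, have the E2F letters in capitals. In Uhrf1 (chr17:56304117-56304146, plus strand) the letters began 185 bases before the start of 1 of its 2 listed promoters. In Dnmt1 (chr9:20952824-20952853, minus strand) they began 219 bases before the start of 1 of 3 and read on the opposite strand. In Hells (chr19:38930917-38930946, plus strand) they began 62 bases before the listed RefSeq start. All 3 windows lie downstream of the outermost start of their gene in the GENCODE annotation, which for Hells is at 38930915.
Uhrf1: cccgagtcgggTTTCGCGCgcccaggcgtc
Dnmt1: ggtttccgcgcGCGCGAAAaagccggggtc
Hells: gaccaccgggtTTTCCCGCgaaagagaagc
A match is a description of these letters and not a mapped site. The same Dnmt1 promoter held a second match after its start.

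RNA-seq libraries held 5083407 to 9230540 reads on genes. Values are counts scaled to 1000000 reads, as CPM after TMM scaling, which evens out differences in composition between libraries, and as RPM without it. Genotypes were compared with edgeR's quasi-likelihood test over 20240 genes, namely those that exceeded 1 RPM in 3 or more of the 6 libraries. Genes counted as called where they changed more than 2-fold and the adjusted p was below 0.05. Mov10 (ENSMUSG00000002227), which checks the labels, was at 114, 96.8 and 119.8 CPM in wild type replicates 1, 2 and 3. It was at 29.2, 26.7 and 26.8 CPM in Mov10-/- replicates 2, 3 and 4, or 25.0% of the wild type level (adjusted p = 0.00552 in that test). This level counts all exons, among them the deleted ones, so it is not the share of transcripts left. Without Mov10-/- replicate 3 or 4 the adjusted p of Mov10 was 0.106 and 0.143 in the same test. Mov10-/- replicate 3 stood apart, with 57.2% of its reads not aligned against 26.5% to 35.9% in the other RNA-seq libraries. Marker genes of the testis cell types were present, and no list had a marker at 0 in every library. The summed level of 10 spermatid markers was 222 to 667 CPM in wild type and 104 to 216 CPM in Mov10-/- testes. Of these, 6 of the 9 tested were lower in every Mov10-/- library, against 14.1% of all genes tested. The 10 Sertoli markers summed to 659 to 786 CPM in wild type and 833 to 943 CPM in Mov10-/- testes, and the 5 peritubular and endothelial markers to 312 to 401 and 434 to 518 CPM. Sums overlapped between genotypes for spermatogonia (416 to 532 CPM in wild type and 504 to 583 CPM in Mov10-/- testes), spermatocytes (1028 to 1107 and 941 to 1120 CPM), Leydig cells (265 to 495 and 347 to 529 CPM) and macrophages (153 to 273 and 196 to 315 CPM). In bulk testis, fewer cells of a type and less RNA per cell cannot be told apart.

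In edgeR's quasi-likelihood test none of the 10 chromatin repressors was called between genotypes, whereas Mov10 itself was the single gene called among 20240 (0.00494%). At an unadjusted p under 0.05 there were 0 of 10, against 17.5% of all genes tested, and 0 of 10 had genotypes that did not overlap, against 26.0% of all genes. DESeq2, edgeR's exact test and limma voom also called 0 of the 10, while DESeq2 called 1039 genes in all and the exact test 1101. The number over all genes thus depended on the test. The paper, which names edgeR but not which of its tests, reported many more changed protein-coding genes at these thresholds. The log2 fold changes of Mov10-/- over wild type lay between -0.064 and 0.18, with a median of 0.063 beside 0.032 over all genes tested. Their median size without sign was 0.071, beside 0.21 over the 15724 protein-coding genes tested. The comparison genes here and above were not matched in level. In wild type level per kb of exon, the members exceeded 57.7% to 97.9% of the genes tested. Adjusted p of the members lay between 0.442 and 0.973. Every 95% interval lay between -0.34 and 0.47, that is between a 0.792-fold and a 1.39-fold level, so that the 2-fold threshold was outside the interval of each of the 10 genes. With 404 to 2230 reads per gene and library, counting error alone was 2.12% to 4.98%.

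**Figure D1:**
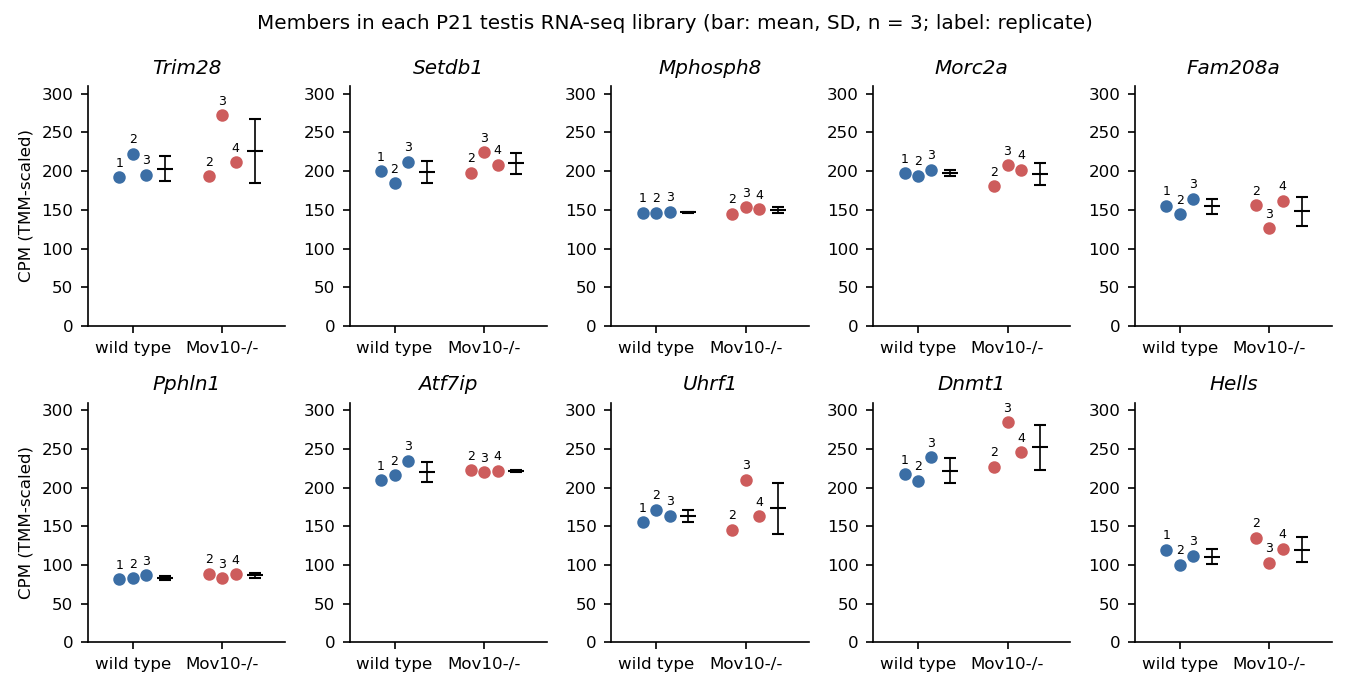
TMM-scaled CPM (vertical axis, from 0) of the 10 genes in each RNA-seq library of wild type (blue) and Mov10-/- (red) P21 testes, with the replicate number above each point and the mean and SD (n = 3) as a bar beside them. The genotypes overlap in all 10 panels, and Mov10-/- replicate 3 is the highest of the 6 libraries for Trim28, Setdb1, Mphosph8, Morc2a, Uhrf1 and Dnmt1 and the lowest Mov10-/- library for the other 4.

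Trim28, Setdb1 and Atf7ip form the arm that KRAB zinc finger proteins recruit. Trim28 (ENSMUSG00000005566, chromosome 7 of mm10, 12999114 to 13031035), the corepressor bound by the zinc finger proteins, was at 192, 222 and 195 CPM in wild type and at 193, 272 and 211 CPM in Mov10-/- testes. Only Mov10-/- replicate 3 lay above the wild type range. The means were 203 ± 16.5 and 226 ± 41.3 CPM (SD, n = 3 each), with a log2 fold change of 0.15 (95% interval -0.18 to 0.47, adjusted p = 0.614 in edgeR's quasi-likelihood test), and it was -0.0072 without Mov10-/- replicate 3. Setdb1 (ENSMUSG00000015697, chromosome 3, 95323525 to 95357202), the histone H3 lysine 9 methyltransferase, was at 200.2, 184 and 212 CPM in wild type and at 198, 224 and 208 CPM in Mov10-/- testes. Its libraries overlapped, with a log2 fold change of 0.077 (95% interval -0.15 to 0.30). Setdb1 lies 9.44 Mb from Mov10 on the same chromosome, and some of its exons overlap Cers2 on the other strand. Atf7ip (ENSMUSG00000030213, chromosome 6, 136506167 to 136610862), the partner that keeps SETDB1 stable in the nucleus, was at 209.6, 216 and 235 CPM in wild type and at 223, 219.8 and 222 CPM in Mov10-/- testes. All 3 Mov10-/- values lay inside the wild type range, and the log2 fold change was 0.0089 (95% interval -0.19 to 0.21).

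The HUSH genes Mphosph8, Fam208a and Pphln1, and Morc2a, which works with them, had libraries that overlapped between genotypes. Mphosph8 (ENSMUSG00000079184, chromosome 14, 56668248 to 56697430) encodes MPP8, whose chromodomain reads methylated histone H3, and it was at 146, 146 and 147 CPM in wild type and at 145, 154 and 151 CPM in Mov10-/- testes. The wild type SD was 0.715 CPM, the smallest of the 10, against 3.90 CPM for Morc2a, 2.64 CPM for Pphln1 and 9.83 CPM for Fam208a. Counting error alone was 2.12% to 4.98% over the members and libraries, so these SDs do not rank the genes in steadiness. Morc2a (ENSMUSG00000034543, chromosome 11, 3649191 to 3690477), an ATPase that compacts chromatin, was at 197, 194 and 202 CPM in wild type and at 181, 208 and 202 CPM in Mov10-/- testes. Fam208a (ENSMUSG00000040651, chromosome 14, 27428834 to 27483555), the scaffold of HUSH, was at 156, 145 and 164 CPM in wild type and at 156, 126 and 162 CPM in Mov10-/- testes. Here Mov10-/- replicate 3 was the lowest of the 6 libraries, and the log2 fold change of -0.064 (95% interval -0.34 to 0.21) was 0.037 without it. Pphln1 (ENSMUSG00000036167, chromosome 15, 93398350 to 93491510), which encodes periphilin, was the least abundant by CPM, at 81.4, 83.1 and 86.6 in wild type and 88.7, 83.1 and 87.8 in Mov10-/- testes. The log2 fold changes of Mphosph8, Morc2a and Pphln1 were 0.031, -0.0070 and 0.048, with intervals from -0.22 to 0.26. Exons of Mphosph8, Morc2a, Fam208a and Atf7ip also overlap genes on the other strand, among them Tug1 at Morc2a and Ccdc66 at Fam208a, and the strand setting of the counting was not given in the sources used here.

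The genes of maintenance methylation, Dnmt1, Uhrf1 and Hells, all had log2 fold changes above 0 and libraries that overlapped between genotypes. Dnmt1 (ENSMUSG00000004099, chromosome 9, 20907209 to 20959888), the maintenance methyltransferase, was at 217, 209 and 239.5 CPM in wild type and at 227, 284 and 246 CPM in Mov10-/- testes. Mov10-/- replicates 3 and 4 lay above the wild type range and replicate 2 inside it. Its log2 fold change of 0.18 (95% interval -0.078 to 0.44, adjusted p = 0.442 in edgeR's quasi-likelihood test) became 0.090 without Mov10-/- replicate 3 and 0.25 without Mov10-/- replicate 2. Uhrf1 (ENSMUSG00000001228, chromosome 17, 56303321 to 56323486), which brings DNMT1 to hemimethylated DNA, was at 155, 171 and 164 CPM in wild type and at 145, 210.3 and 163 CPM in Mov10-/- testes. Replicates 2 and 3 of Mov10-/- lay on opposite sides of the wild type range, and the log2 fold change of 0.079 (95% interval -0.25 to 0.41) was -0.083 without replicate 3. Hells (ENSMUSG00000025001, chromosome 19, 38930915 to 38971051), the nucleosome remodeller, was at 120.0, 100.4 and 112 CPM in wild type and at 135, 103 and 121 CPM in Mov10-/- testes. Mov10-/- replicates 2 and 4 were the highest of the 6 libraries and replicate 3 fell within the wild type range, with a log2 fold change of 0.12 (95% interval -0.18 to 0.41) that became 0.21 without replicate 3 and 0.021 without replicate 2.

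**Figure D2:**
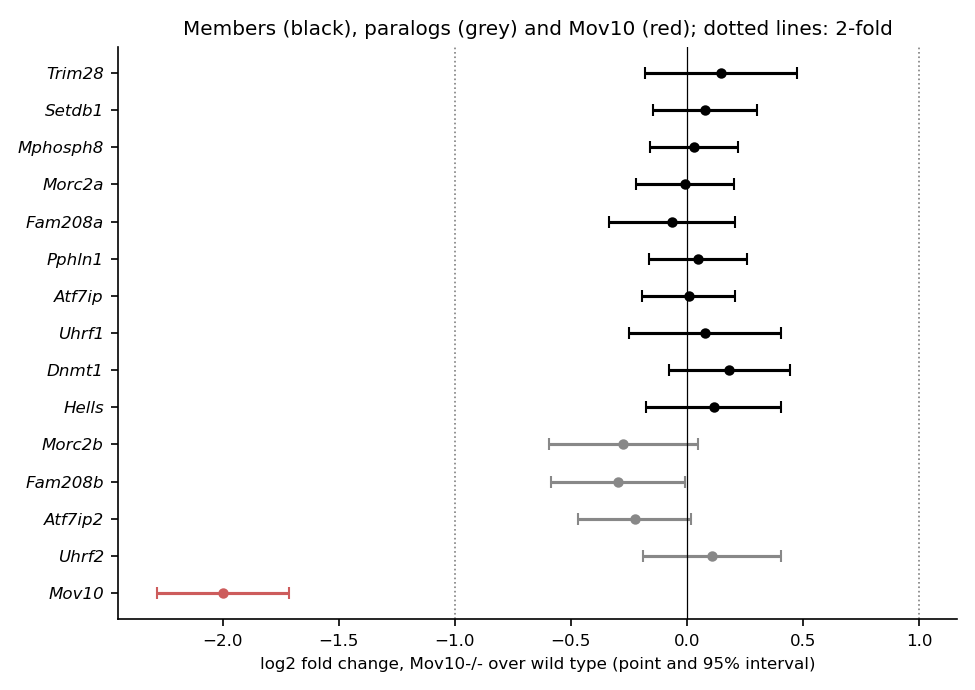
Log2 fold change of Mov10-/- over wild type (horizontal axis) with its 95% interval from edgeR's quasi-likelihood fit for the 10 genes (black), 4 paralogs (grey) and Mov10 (red), with dotted lines at a 2-fold change. The intervals of the 10 genes all include 0 and end between -0.34 and 0.47, and Mov10 lies at -2.00.

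The 10 genes took different sides in Mov10-/- replicate 3, and GC content moved with this. Trim28, Uhrf1 and Dnmt1, whose longest protein-coding transcripts have a GC content of 59.6%, 53.7% and 54.0%, were 0.43, 0.45 and 0.27 higher on the log2(CPM + 1) scale in replicate 3 than in the mean of the other Mov10-/- libraries. Hells and Fam208a, with 37.7% and 38.9%, differed by -0.31 and -0.33. Other members followed GC content less closely. Mphosph8, with 42.6%, was 0.055 higher, and Pphln1, with 43.9%, differed by -0.086, both among the 3145 protein-coding genes with the lowest GC content. Over all protein-coding genes the difference climbed with GC content, with a median difference of -0.19 in the lowest of 5 bins of GC content with near-equal numbers of genes and 0.17 in the highest bin. Across 15724 genes of this library, the Spearman correlation of that difference with GC content was 0.325, and with each library set against the other libraries of its genotype it was between -0.262 and 0.110 in the other 5. Genes of 1 library share its preparation and are not independent. With exon length the same correlation was -0.225 in this library and between -0.155 and 0.188 in the other 5. The parts of GC content and of length in the members' values were not tested. The fold changes without this library are given above for the genes whose direction turned.

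**Figure D3:**
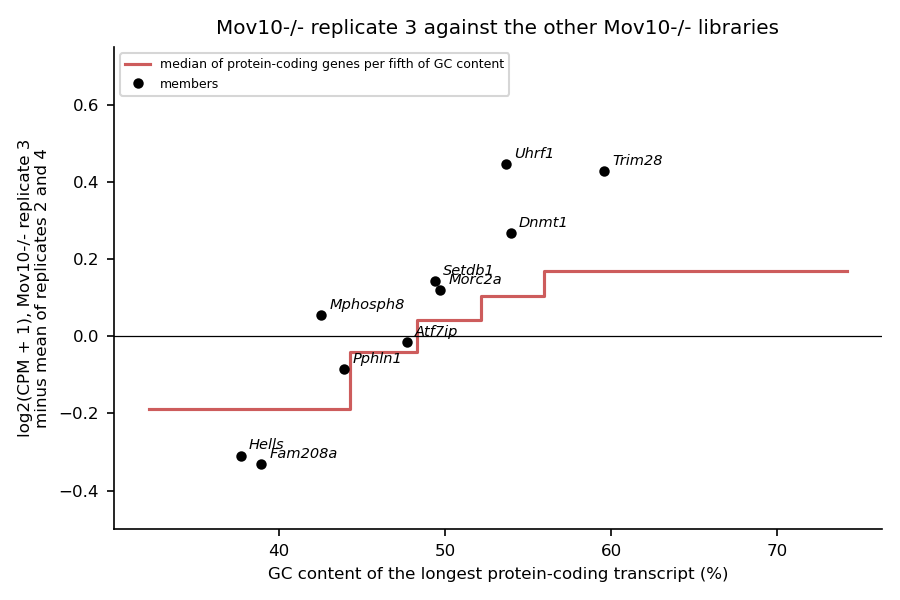
Difference on the log2(CPM + 1) scale between Mov10-/- replicate 3 and the mean of Mov10-/- replicates 2 and 4 (vertical axis) against the GC content of the longest protein-coding transcript (horizontal axis, %), for the 10 genes (points) and as the median of protein-coding genes in each of 5 bins of GC content with near-equal numbers of genes (red line). The line climbs from -0.19 to 0.17, and the members run from -0.33 for Fam208a to 0.45 for Uhrf1.

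In wild type testis the 10 genes covered 10.6 to 48.9 CPM per kb of annotated exon. Trim28 was highest at 48.9 ± 3.96 (SD, n = 3 here and below), above 97.9% of the genes tested. Mphosph8 at 40.9 ± 0.199, Uhrf1 at 38.4 ± 1.86, Morc2a at 30.8 ± 0.607, Dnmt1 at 30.1 ± 2.13 and Setdb1 at 29.0 ± 2.02 followed. Morc2a, Dnmt1 and Setdb1, neighbours in this order, overlapped between libraries. The lower 4 were Pphln1 at 18.4 ± 0.582, Hells at 15.4 ± 1.37, Fam208a at 11.4 ± 0.721 and Atf7ip at 10.6 ± 0.626 CPM per kb, the last of which exceeded 57.7% of the genes tested, and Fam208a and Atf7ip overlapped. Levels depended on the length used. By the longest transcript, Atf7ip was at 27.3 and Fam208a at 20.4 CPM per kb, and Atf7ip ranked 7 and Hells 10, while Trim28, Mphosph8 and Uhrf1 stayed the first 3.

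**Figure D4:**
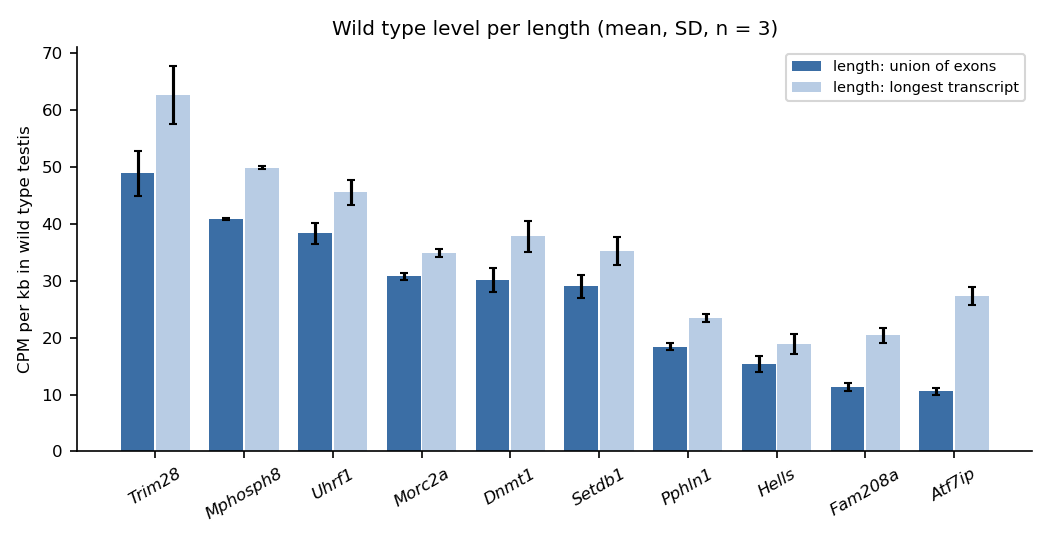
Level per length of the 10 genes in wild type P21 testes (vertical axis, CPM per kb; mean and SD, n = 3), with the union of annotated exons (dark bars) or the longest transcript (light bars) as length. Trim28, Mphosph8 and Uhrf1 are the 3 highest by either length, and Atf7ip moves from 10.6 to 27.3.

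None of the 4 paralogs of the members was called, and for 2 of them, Fam208b and Atf7ip2, every Mov10-/- library lay below every wild type library, as for 14.1% of all genes tested. Fam208b, the paralog of Fam208a, was at 249, 313 and 240.5 CPM in wild type and at 231, 202 and 220.3 CPM in Mov10-/- testes. Its log2 fold change was -0.30 (95% interval -0.59 to -0.0094, adjusted p = 0.272 in edgeR's quasi-likelihood test), and its exons overlap Gdi2 on the other strand. Without wild type replicate 2, the library with the highest summed spermatid markers, it was -0.16 (adjusted p = 0.697 in the same edgeR test). Atf7ip2 was at 77.3, 76.0 and 73.6 CPM in wild type and at 62.2, 61.1 and 70.7 CPM in Mov10-/- testes, with a log2 fold change of -0.22 (adjusted p = 0.320 in the same edgeR test). Morc2b, a close copy of Morc2a for which counting could have split reads, was at 214, 252 and 203 CPM in wild type and at 154, 209 and 191 CPM in Mov10-/- testes. It overlapped through Mov10-/- replicate 3 (log2 fold change -0.27, 95% interval -0.60 to 0.050), and its log2 fold change was -0.17 without wild type replicate 2 and -0.16 without Mov10-/- replicate 2. Uhrf2, the paralog of Uhrf1, overlapped with a log2 fold change of 0.11, which was 0.0070 without wild type replicate 2. The summed spermatid markers were lower in the same Mov10-/- libraries, and their part in these values was not tested, nor was the difference between a member and its paralog.

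Genes that work with the 10 were read from 4 lists. Of 15 KRAB zinc finger genes linked to repeats or imprints, 12 were tested and 0 were called in edgeR's quasi-likelihood test, DESeq2, the exact test or voom. At an unadjusted p under 0.05, 4 were lower and 0 higher, against 11.9% and 5.58% of all genes tested. Zfp57, which protects methylation at imprinted genes, was at 31.3, 55.1 and 24.2 CPM in wild type and at 13.8, 24.7 and 16.4 CPM in Mov10-/- testes, a log2 fold change of -1.02 (standard error 0.35, adjusted p = 0.206 in edgeR's quasi-likelihood test). Zfp819 was at 24.4, 43.1 and 17.6 CPM against 9.18, 17.1 and 12.8 CPM, and its Mov10-/- libraries were all lower. Wild type replicate 2 was the highest library for both, as it was for the summed spermatid markers, whose part in these values was not tested. Zfp429 and Rsl1, members of gene clusters whose similar copies make their counts uncertain, had log2 fold changes of -1.23 and -1.19 at a wild type mean of 5.05 and 7.64 CPM. The median of the 12 was -0.046, beside 0.032 over all genes.

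Of the 26 partners of KRAB, HUSH and histone H3 lysine 9 methylation, all were tested, 0 were called by any of these 4 tests, and their median log2 fold change was 0.066. At an unadjusted p under 0.05, 1 was lower (Fam208b) and 1 higher, and 7 had genotypes that did not overlap, 5 of them higher, beside 26.0% of all genes. Wiz, a zinc finger partner of the methyltransferases G9a and GLP, was at 136, 127 and 143 CPM in wild type and at 160, 187 and 155 CPM in Mov10-/- testes, a log2 fold change of 0.30 (adjusted p = 0.209 in edgeR's quasi-likelihood test). Ehmt1, which encodes GLP, also had no overlap, with means of 90.2 ± 16.8 and 112 ± 5.01 CPM (SD, n = 3 each) and a log2 fold change of 0.31. Of 17 partners in DNA methylation, 16 were tested (Dppa3 was not), 0 were called by edgeR's quasi-likelihood test, and the median was 0.13. Dnmt3l, the cofactor of the enzymes that set new methylation in male germ cells, was at 10.4, 15.3 and 3.54 CPM in wild type and at 2.11, 2.26 and 2.59 CPM in Mov10-/- testes. Every Mov10-/- library was lower, and the wild type libraries had the same order as the summed spermatid markers (312, 667 and 222 CPM), whose part in this was not tested. Its log2 fold change of -2.06 (standard error 0.53) had an adjusted p of 0.150 in that test and 0.0178 in DESeq2, which, like edgeR's exact test, called 1 gene of the list. Cdca7l, a relative of the HELLS partner CDCA7, had no overlap between genotypes (log2 fold change -0.36), and the demethylases Tet2 and Tet3 overlapped at 0.33 and 0.36.

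S phase genes, which share their time of expression with Uhrf1, Dnmt1 and Hells, had log2 fold changes mostly above 0. All 20 were tested and 0 were called by any of the 4 tests, 15 had a log2 fold change above 0 and 5 below, and the median was 0.14 beside 0.032 over all genes. At an unadjusted p under 0.05, 3 were higher (Cdt1, Mcm2 and Mcm5) and 0 lower, beside 5.58% and 11.9% of all genes tested. Cdt1, which licenses replication origins, was at 26.4, 17.9 and 27.0 CPM in wild type and at 35.7, 41.1 and 34.9 CPM in Mov10-/- testes (log2 fold change 0.65, adjusted p = 0.182 in edgeR's quasi-likelihood test). The helicase subunits Mcm2, Mcm5 and Mcm3 had log2 fold changes of 0.44, 0.27 and 0.29, and these 4 genes had every Mov10-/- library above every wild type library, which Uhrf1, Dnmt1 and Hells did not. In all, 6 of the 20 had every Mov10-/- library higher and 1 every one lower, beside 11.9% and 14.1% of all genes tested. The summed Sertoli markers (659 to 786 CPM in wild type and 833 to 943 CPM in Mov10-/- testes) and the peritubular and endothelial markers (312 to 401 and 434 to 518 CPM) were also higher in every Mov10-/- library, and the spermatid markers (222 to 667 and 104 to 216 CPM) lower. Their part in the S phase values was not tested.

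**Figure D5:**
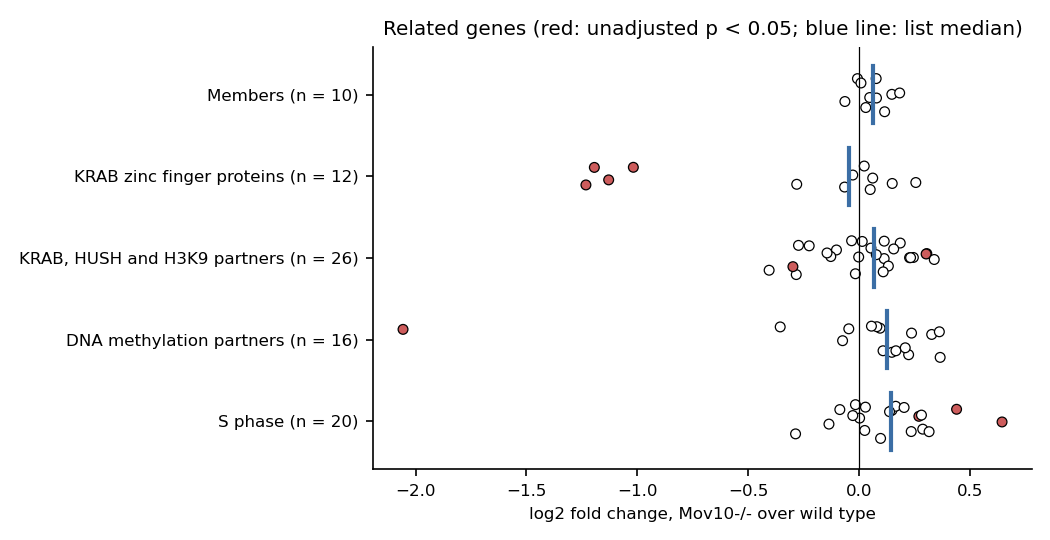
Log2 fold change of Mov10-/- over wild type (horizontal axis) of the 10 members and of the tested genes of the 4 related lists, each gene a point, red where its unadjusted p was under 0.05 in edgeR's quasi-likelihood test, with the median of each list as a blue line. The members lie between -0.064 and 0.18, and the KRAB zinc finger list holds 4 red points between -1.23 and -1.02.

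CLIP-seq asks which RNAs MOV10 touches, and few reads fell on the 10 genes. Of the CLIP-seq reads in the deposited counts, 99.5% to 99.6% were not aligned. Only 3404 to 4934 reads per library lay on genes, and a single read was worth 203 to 294 RPM. Replicates 1, 2 and 3 differed by less than the sampling noise (chi-square over degrees of freedom 0.223 to 0.237, against 1.62 to 1.93 with replicate 5) and were counted as 1 library beside replicate 5. The paper took RNA from the main radioactive band and from a higher position, and the labels do not say which library is which. In replicates 1, 2, 3 and 5 the 10 genes had 5, 5, 5 and 3 reads, where their share of wild type RNA-seq would give 6.68, 5.79, 5.76 and 8.35. The exact Poisson interval of 3 reads is 0.619 to 8.77 and that of 5 reads 1.62 to 11.7, which cover counting error only. No departure from the RNA-seq share was therefore detectable from so few reads in libraries that were almost wholly unaligned. The ratio of CLIP-seq to wild type RNA-seq over the 10 genes together was 0.593, or 0.116 with TMM scaling across both assays. It rests on the few reads given above, carries no interval, and was 0.827 without replicate 5.

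Of the 10 genes, 5 had at least 1 CLIP-seq read, against 19.1% of the 18779 genes that exceeded 1 RPM in all 3 wild type libraries and 41.1% of the 3725 of them within the members' range of wild type level (83.2 to 221 RPM). Setdb1 had 2 reads in each of replicates 1, 2 and 3 and 0 in replicate 5, and Morc2a 1, 1, 1 and 0. Fam208a had 1, 2, 1 and 1 reads and Pphln1 1, 0, 1 and 1. With replicates 1, 2 and 3 counted as 1 library, both of these genes had a read in it and in replicate 5. Uhrf1 had a single read in replicate 5. Trim28, Mphosph8, Atf7ip, Dnmt1 and Hells had none, which in replicate 5 allows up to 608 RPM (3 reads), above the wild type RNA-seq level of each. None of the 10 reached 10 CLIP-seq reads, and no ratio is given for single genes. The reads were not related to the change in Mov10-/- testes, since so few fell on each gene. MOV10 is known to prefer 3′ UTRs, and the longest annotated 3′ UTR of the members ran from 176 bases in Trim28 to 3972 in Atf7ip, with a median of 1182 beside 1069 over the protein-coding genes tested.

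Over the 6 RNA-seq libraries the members did not share a profile. The mean standardised profile of Uhrf1, Dnmt1 and Hells was most like those of Ddx27, Mrps9 and Thoc3, with Pearson correlations of 0.999, 0.998 and 0.997 in log2(CPM + 1). However, 216 of 15721 genes reached 0.95 over 6 libraries. The correlations of the 3 genes themselves with their own mean ran from 0.016 to 0.970. The profile of the other 7 was most like Rnf8, Wdr4 and B4galt5 (0.985, 0.985 and 0.981), and its members ranged from -0.076 to 0.842. These values describe libraries that differed in their relation to GC content and in summed spermatid markers, and they carry no test.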

How the data were processed

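Each of the 10 libraries has 1 file of Ensembl gene counts, which the authors deposited unnormalized. Reads of the RNA-seq libraries, made with a stranded kit, had been trimmed of adapters, aligned to mm10 with STAR and counted against Ensembl genes with htseq-count. For CLIP-seq the methods point to earlier work, and the processing notes list the same tools. Versions of the tools and the strand setting are not given in the sources used here. The 5 summary totals of each file, which name no gene (52.8% to 71.7% of reads in RNA-seq and 99.9% to 100% in CLIP-seq), were left out. Names, positions and lengths came from GENCODE vM21 on the same build, which matched 55154 of 55421 genes.

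Library size, TMM factors and tests were computed with edgeR 4.0.16 in R 4.3.3 on the 20240 genes passing the filter, with Benjamini-Hochberg adjustment over all of them, by genotype alone. The paper's methods describe 3 pairs of testes per genotype. Intervals are the log2 fold change plus or minus its approximate standard error times the t quantile for 95%. DESeq2 1.42.0, limma 3.58.1 and other settings served as alternatives, and the scripts were tested on simulated data. A permutation test of 3 against 3 cannot go below 0.1, so none was run. The members and lists were chosen with earlier results of these data known. Named genes were all members, their paralogs, the 4 lowest p-values of each related list and the 3 most alike genes. No proteins were printed. Python 3.11.15 and matplotlib 3.10.9 made tables and figures.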

Additional observations from a re-analysis of the deposited data

Results flagged for a closer look

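Among 7 measures of the members compared over the 4 CLIP-seq libraries, 3 had replicate 5 far from the others. The usual chance rate of about 1 in 20 does not hold for these 3, since they rest on counts of 0, 1 or 2 reads. Setdb1 had 0 RPM (counts scaled to 1000000 reads) in replicate 5 and 507 to 588 in replicates 1, 2 and 3. Morc2a had 0 RPM in replicate 5 and 253 to 294 in the others. Uhrf1 had 203 RPM in replicate 5, from 1 read, and 0 in the others. The labels do not say which libraries came from the main radioactive band and which from the higher position that the paper describes. Replicates 1, 2 and 3 differ by less than sampling noise, which makes any further library stand apart, and each of the flagged differences is 1 or 2 reads. Groups of 3 RNA-seq libraries were not tested in this way.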

How the results depend on the processing

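Under 14 alternatives, with other normalizations, no filter, DESeq2, the exact test, voom, the replicate block and each library left out, 0 of the 10 members were called, and the median of their log2 fold changes stayed between 0.021 (without wild type replicate 1 or Mov10-/- replicate 3) and 0.066 (without wild type replicate 3). The 140 member values ran from -0.14 to 0.25 and 10 of them turned direction. Atf7ip was -0.0031 with RLE scaling, -0.0028 with upper quartile scaling, -0.0030 without a filter, -0.0029 in DESeq2, -0.025 with the replicate block and -0.039 without wild type replicate 1. Morc2a was 0.051 without Mov10-/- replicate 2. Without Mov10-/- replicate 3, Trim28 was -0.0072, Fam208a 0.037 and Uhrf1 -0.083. With each library left out, Trim28 ran from -0.0072 to 0.25, Dnmt1 from 0.090 to 0.25, Hells from 0.021 to 0.21, Uhrf1 from -0.083 to 0.19, Fam208a from -0.13 to 0.037, Morc2a from -0.047 to 0.051 and Atf7ip from -0.039 to 0.047. Over all genes, calls numbered 0 to 10 in the other edgeR quasi-likelihood and voom fits, 184 with the replicate block, 1039 in DESeq2 and 1101 in the exact test. Replicate numbers 2 and 3 occur in both genotypes, but their libraries deviated in opposite ways (correlations -0.476 and -0.346), so the numbers were not read as pairs. In the replicate block, wild type replicate 1 and Mov10-/- replicate 4 have no counterpart, so its genotype difference rests on replicates 2 and 3 alone. The CLIP-seq ratio over the members was 0.116 with TMM across both assays, 0.710 with 4 separate libraries, and 0.578 to 0.827 with each library left out; 4 of 10 members kept a read without replicate 5. Levels per length rose for every member with the longest transcript as length, since it is the shorter. With 3 libraries a genotype and at most 2 CLIP-seq reads per member and library, smaller differences were not detectable.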
